A study of Mus musculus with 4 samples.

Results

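The 10 genes described here encode the mTOR complexes and the TSC-RHEB switch, and were followed in 32Dcl3-Abl1ko cells: Mtor, Rptor, Rictor, Mlst8, Tsc1, Tsc2, Rheb, Deptor, Prr5 and Mapkap1. They were chosen by gene name, and all 10 were found among the 23756 genes of the deposited table. 32Dcl3 is a murine hematopoietic line that normally needs IL-3, and in both groups Abl1 had been knocked out with CRISPR/Cas9, infected cells selected with puromycin and single clones taken. RNA-seq libraries came from cells cultured with IL-3 (Abl1ko/IL3+, labelled Abl1-KO/IL3+, 2 replicates) and from cells cultured without it (Abl1ko/IL3-, labelled Abl1-KO/IL3-, 2 replicates). Per the study, the cells without IL-3 were those that grew out after its withdrawal, so the removal of IL-3 and the selection of growth factor-independent cells cannot be told apart. The labels give neither the clone behind each library nor the time without IL-3, and p-values measure only the spread between these libraries, which may be technical.

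mTOR is a serine/threonine kinase that senses growth factors and nutrients and sets the rate of protein synthesis and growth. In mTORC1 it is joined by RPTOR, which brings in substrates such as the S6 kinases and the 4E-BP translation repressors. In mTORC2 it is joined by RICTOR and by SIN1, the product of Mapkap1, and that complex phosphorylates AKT. MLST8 belongs to both complexes and DEPTOR binds and restrains the kinase. PRR5, also called Protor-1, binds RICTOR. TSC1 and TSC2 form the brake on mTORC1, since TSC2 turns off the small GTPase RHEB, which activates mTORC1 at the lysosome. In hematopoietic cells IL-3 signals through PI3K and AKT, and AKT releases that brake.

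Of the 10 genes, Prr5 stood apart, with nearly all of its reads in the Abl1ko/IL3+ libraries. The other 9 genes had fitted changes between -0.15 and 0.31 on the log2 scale without against with IL-3. All 10 passed the filter on low counts, which a gene can pass through 1 group alone. Prr5 did so through its Abl1ko/IL3+ counts (195 and 302, against 15 and 0 without IL-3). None of the 10 genes passed the quasi-likelihood test of edgeR once p-values were adjusted by Benjamini-Hochberg over the 16535 genes tested, and the share of all genes called was 0%. The smallest adjusted p-value of the 10 was 0.815, that of Prr5. Before adjustment, Prr5 alone of the 10 genes was under 0.05, as were 5.91% of all genes tested, 3.36% with a lower and 2.56% with a higher level without IL-3.

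The sequences before the annotated starts of Prr5 are shown because it is the gene with the largest difference. Those of Mtor and Mapkap1 are shown because, of the genes compared with Mtor, Mapkap1 had the least different profile over the libraries. They are the 250 bases before a RefSeq gene start in GRCm38.p6. The 2 RefSeq starts of Prr5, 84663206 and 84680998, lie on either side of the start that the count table gives, 84669620. The 4 sequences lie on the plus strand, at chr15:84662956-84663205 and chr15:84680748-84680997 for the upstream and downstream starts of Prr5, at chr4:148448332-148448581 for Mtor and at chr2:34406521-34406770 for the first start of Mapkap1. Capitals mark matches on either strand to a GC box (GGGCGG), an E-box (CACGTG), the STAT motif (TTCNNNGAA) or the FOXO motif (GTAAACA).
Prr5 upstream start: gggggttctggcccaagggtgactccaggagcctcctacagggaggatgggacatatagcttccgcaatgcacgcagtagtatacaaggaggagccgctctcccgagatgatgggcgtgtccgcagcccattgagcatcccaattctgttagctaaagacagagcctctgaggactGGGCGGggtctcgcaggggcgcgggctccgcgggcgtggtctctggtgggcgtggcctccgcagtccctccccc
Prr5 downstream start: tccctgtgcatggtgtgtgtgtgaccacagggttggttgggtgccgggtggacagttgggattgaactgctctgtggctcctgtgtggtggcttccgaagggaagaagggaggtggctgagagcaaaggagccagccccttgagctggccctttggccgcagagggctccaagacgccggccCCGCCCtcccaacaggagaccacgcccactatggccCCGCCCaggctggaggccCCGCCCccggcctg
Mtor: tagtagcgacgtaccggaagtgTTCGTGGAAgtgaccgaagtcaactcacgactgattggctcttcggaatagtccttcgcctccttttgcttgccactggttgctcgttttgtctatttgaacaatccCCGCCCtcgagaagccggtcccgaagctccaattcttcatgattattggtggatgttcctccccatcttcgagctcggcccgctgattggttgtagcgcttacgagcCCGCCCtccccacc
Mapkap1: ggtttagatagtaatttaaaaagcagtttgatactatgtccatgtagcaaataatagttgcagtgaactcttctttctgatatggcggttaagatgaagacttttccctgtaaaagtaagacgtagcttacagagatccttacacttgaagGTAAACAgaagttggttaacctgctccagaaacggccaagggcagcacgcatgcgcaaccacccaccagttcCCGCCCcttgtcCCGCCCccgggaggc

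The table of promoter windows matched 9 of the 10 genes with 11 windows, and Deptor was not matched. Both Prr5 windows were rich in G and C (64% and 66.8%, against a median of 52.4% over 32851 windows of this length), and held 1 and 3 GC boxes. This did not set Prr5 apart, as the windows of the other genes ranged from 37.6% (Rptor) to 81.2% (Rictor), with Rheb at 68%. Neither Prr5 window held the E-box, STAT or FOXO letters. A GC box was found before 5 of the 9 genes, in 7 of their 11 windows, and in 32.7% of all windows. The 2 windows of Mapkap1 overlap and share matches. The STAT letters were found before Mtor only among the 9 genes, and in 7.02% of all windows. The FOXO letters were found before Mapkap1 only, in both of its windows, and in 3.17% of all windows. The E-box was found before Rheb only, and in 6.02% of all windows. A match is a description of the letters and not evidence of binding.

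The libraries held between 48953174 and 60382588 counts, and the 10 genes together held between 13389 and 18115 of them. Reads of Abl1 numbered 1322 and 2222 with IL-3 and 1544 and 2256 in its absence, which does not check the edit, because a small indel can leave the RNA in place. The labels call the line pre-B, but 11 myeloid progenitor markers summed to 4996 and 3209 CPM (counts scaled by library size, TMM-normalized) with IL-3 and to 2792 and 2148 CPM without it, against 19.6 to 26.8 CPM for the 7 of 11 B lineage markers in the table. The progenitor sum was thus lower in both Abl1ko/IL3- libraries. Mpo, which encodes myeloperoxidase, is a large part of that sum and was itself lower (1879 and 1477 CPM against 908 and 499 CPM). The lower sum is therefore not a result separate from Mpo, and the sum of the other markers was not taken. Of the 10 progenitor markers tested, 2 (Mpo included) were lower in both Abl1ko/IL3- libraries than in both Abl1ko/IL3+ libraries, and 0 were higher. The rest overlapped. Over all genes tested, 17.9% were lower and 19.4% higher in this way. The B lineage genes Pax5, Ebf1, Rag2 and Blnk were not found by name in the table, and Rag1 and the progenitor marker Kit had at most 4 counts in any library. Of 10 maturing granulocyte markers, 9 were tested, and 5 of them were higher in both Abl1ko/IL3- libraries than in both Abl1ko/IL3+ libraries, as were 19.4% of all genes tested. The summed level of the 10 markers was 944 and 358 CPM with IL-3, and 963 and 5455 CPM without it. The summed level of 6 erythroid markers was 185 and 7134 CPM with IL-3, and 3480 and 1689 CPM without it. Macrophage markers (7 in the table) summed to 332 and 61.4 CPM with IL-3 and 102 and 219 CPM without it, mast cell markers (6) to 545 and 83.7 CPM and to 157 and 120.02 CPM, and T cell markers (3) to at most 5.31 CPM. The part of these cell states in the results was not tested, and in bulk RNA fewer cells of a type and less RNA per cell cannot be told apart.

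Prr5, on chromosome 15 from 84669620 to 84703673 (GRCm38, plus strand), is a small gene with 2 coding transcripts in GENCODE M21 and an exon union of 1.92 kb. Its reads numbered 195 and 302 in Abl1ko/IL3+ replicates 1 and 2, but 15 and 0 in Abl1ko/IL3- replicates 1 and 2. The levels were 3.03 and 5.55 CPM against 0.313 and 0 CPM. Both Abl1ko/IL3- libraries were thus below both Abl1ko/IL3+ libraries. The group means were 4.29 ± 1.79 CPM with IL-3 and 0.157 ± 0.222 CPM without it (SD, n = 2 each).

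Between the closest libraries, Abl1ko/IL3+ replicate 1 and Abl1ko/IL3- replicate 1, Prr5 was 9.65-fold higher with IL-3 (95% exact Poisson interval 5.71 to 17.6, which covers counting error only). Abl1ko/IL3- replicate 2 had 0 counts of Prr5, and 3 counts there, used as a floor, would be 0.0517 CPM. Against that floor Abl1ko/IL3+ replicate 1 was 58.5-fold higher and Abl1ko/IL3+ replicate 2 107-fold higher. Both values take the Abl1ko/IL3+ counts as given and leave out counting error and the spread between replicates. The fitted log2 fold change of Prr5 was -4.79 (standard error 1.62, 95% interval -8.97 to -0.61, edgeR unadjusted p = 0.0322, adjusted p = 0.815). Of the 16535 genes tested, 72 had a fitted value at or below that of Prr5. With 2 libraries a group, an exact permutation test over libraries cannot give a two-sided p below 0.333. DESeq2's Wald test called Prr5 (log2 fold change -4.79, adjusted p = 0.0309), along with 1.64% of all genes. The adjusted p-value of Prr5 ranged from 0.0309 to 0.9998 over the 10 alternative fits listed under the processing that gave a value, and the log2 fold change was below 0 in 10 of 10. Without Abl1ko/IL3- replicate 1 it was -10.98, a value set by the remaining library with 0 counts, and without Abl1ko/IL3+ replicate 2 the unadjusted p-value of edgeR was 0.0612.

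The tested genes around Prr5 on chromosome 15 had passed the filter on low counts, so that they were read was largely set in advance. Within 500 kb on either side, a window chosen after the values of Prr5 were seen, 19 other genes were listed and 11 were tested. All 11 had counts in every library, with fitted log2 fold changes from -1.14 to 0.66. Upstream, Parvg, a parvin adaptor of integrin signaling, had 249 and 244 CPM with IL-3 and 156 and 161 CPM without it. Downstream, the nearest tested gene, Phf21b, 81.7 kb away, had 13.5 and 9.07 CPM with IL-3 and 17.2 and 12.6 CPM without it. The other genes listed between Parvg and Phf21b were not tested, so the stretch next to Prr5 is not described. Arhgap8, which follows Prr5 on the same strand, had at most 4 counts in any library.

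**Figure D1:**
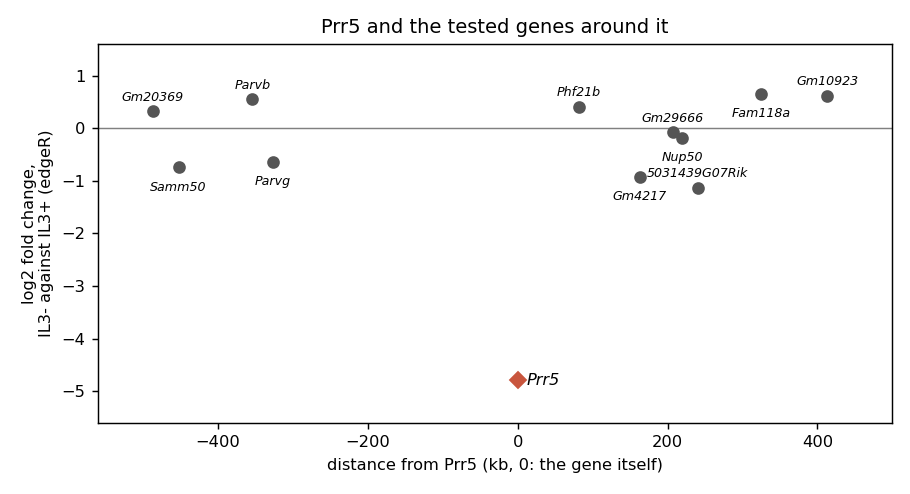
Fitted log2 fold change (edgeR, Abl1ko/IL3- against Abl1ko/IL3+, vertical axis) of Prr5 (diamond) and the 11 tested genes around it (points), by distance from Prr5 in kb (horizontal axis). Prr5 lies at -4.79, and the 11 neighbours lie between -1.14 and 0.66.

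RICTOR, the scaffold that defines mTORC2 and binds PRR5, is encoded on chromosome 15 from 6708379 to 6780634. Rictor had 39.4 and 14.1 CPM with IL-3, and 34.8 and 31.4 CPM without it. The low value was that of Abl1ko/IL3+ replicate 2, and the other Abl1ko/IL3+ library was above both libraries without IL-3, so the groups overlapped. The fitted log2 fold change was 0.31 (standard error 0.56, 95% interval -1.14 to 1.76, adjusted p of 0.98 in edgeR). Without Abl1ko/IL3+ replicate 2 it was -0.25, and without Abl1ko/IL3+ replicate 1 it was 1.25 (edgeR unadjusted p = 0.0176, adjusted p = 0.258). Rictor was the most variable of the other 9 genes, with its highest library 2.80 times its lowest. The level of Prr5 per gene length (FPKM, fragments scaled by gene length and library size) was 0.676 and 3.48 times that of Rictor with IL-3, and 0.0792 and 0 times without it.

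Mapkap1 (chromosome 2, from 34406771 to 34624950) encodes SIN1, which helps mTORC2 to select its substrates. It had 36.2 and 36.4 CPM with IL-3, and 32.9 and 35.1 CPM without it. The libraries without IL-3 were slightly lower and did not overlap those with IL-3, but the fitted change was small against its error (log2 fold change -0.094, standard error 0.31, 95% interval -0.90 to 0.71, edgeR adjusted p = 0.989). Gm13408 shares 798 bases with Mapkap1 on the same strand and had between 1849 and 3149 counts, so reads shared by both are uncertain.

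Mtor itself (chromosome 4, from 148448611 to 148557683) had 27.8 and 26.8 CPM with IL-3, and 23.6 and 25.7 CPM without it. The groups did not overlap, and the fitted log2 fold change was -0.15 (standard error 0.33, 95% interval -1.0 to 0.71, edgeR adjusted p = 0.98). Mlst8 (chromosome 17, from 24473551 to 24479078) encodes the WD-repeat subunit of both complexes. It had 25.0 and 24.2 CPM with IL-3, and 26.3 CPM in each library without it. The log2 fold change of Mlst8 was 0.095 (standard error 0.33, edgeR adjusted p = 0.99). The levels of Mlst8 were higher in both libraries without IL-3, by less than the fitted error. Bricd5 overlaps Mlst8 on the other strand, with 6 to 57 counts. Whether strand was used in the counting is not given in the sources used here.

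Rptor, the mTORC1 scaffold (chromosome 11, from 119602905 to 119899407), had 28.5 and 22.6 CPM with IL-3, and 27.3 and 23.5 CPM without it. Its groups overlapped, with a log2 fold change of -0.0092 (standard error 0.35, edgeR adjusted p = 0.999). Deptor, the inhibitor (chromosome 15, from 55112317 to 55259271), had 6.86 and 5.70 CPM with IL-3, and 5.35 and 7.08 CPM without it. Deptor overlapped between the groups too, with a log2 fold change of -0.015 (standard error 0.46, 95% interval -1.19 to 1.16). For both genes the sign turned with the scaling between libraries: with library size alone it was 0.0052 for Rptor and 0.013 for Deptor.

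**Figure D2:**
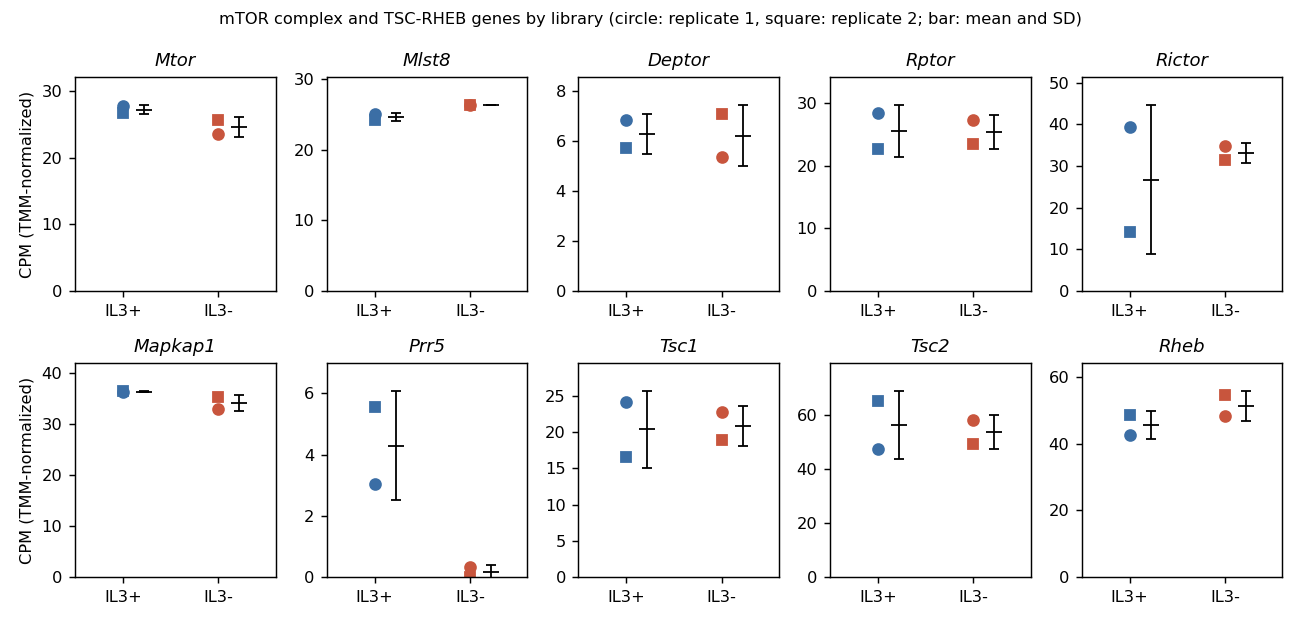
Level of each of the 10 genes in TMM-normalized CPM (vertical axes, each from 0) in the Abl1ko/IL3+ and Abl1ko/IL3- libraries (horizontal axis), with circles for replicate 1, squares for replicate 2 and black bars for the mean and SD. Prr5 lies at 3.03 and 5.55 CPM with IL-3 and at 0.313 and 0 CPM without it, and Rictor is low in Abl1ko/IL3+ replicate 2 (14.1 CPM).

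For both TSC genes and for Rheb the groups overlapped. Tsc1, which stabilizes TSC2 (chromosome 2, from 28641228 to 28691167), had 24.2 and 16.6 CPM with IL-3, and 22.8 and 18.9 CPM without it. Tsc2, which carries the GTPase-activating domain (chromosome 17, from 24595816 to 24632630), had 47.4 and 65.2 CPM with IL-3, and 58.1 and 49.2 CPM without it. Both genes overlapped between the groups, with log2 fold changes of 0.034 for Tsc1 (standard error 0.39) and -0.069 for Tsc2 (standard error 0.34). Tsc2 shares 693 bases with Pkd1 on the other strand, which had 337 to 750 counts.

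Rheb (chromosome 5, from 24802823 to 24842624) had 42.7 and 48.6 CPM with IL-3, and 48.2 and 54.5 CPM without it. Its highest level was in Abl1ko/IL3- replicate 2 and its lowest in Abl1ko/IL3+ replicate 1, and the groups overlapped narrowly (log2 fold change 0.17, standard error 0.31, 95% interval -0.62 to 0.96, adjusted p of 0.98 in edgeR). Over the other 9 genes the 95% intervals reached from -1.19 to 1.76 on the log2 scale, or 0.437-fold to 3.38-fold. A p-value above the threshold therefore does not show that their levels were equal.

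**Figure D3:**
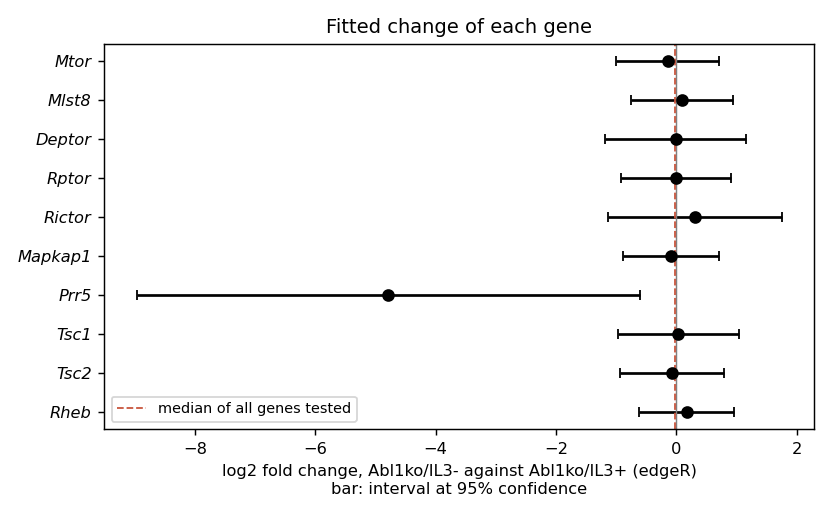
Fitted log2 fold change of each gene, Abl1ko/IL3- over Abl1ko/IL3+ (points, edgeR) with its 95% interval (bars), and the median of all genes tested (dashed line, -0.027). Prr5 lies at -4.79 with an interval below 0, and the intervals of the other 9 genes span 0.

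The median log2 fold change of all 10 genes was -0.012, with fitted values above 0 in 4 genes and below 0 in 6 (with library size alone, above 0 in 6 and below 0 in 4, with a median of 0.0092). Over all genes tested the median was -0.027 and 51.9% were below 0. In 4 of the 10 genes the groups did not overlap, lower without IL-3 in Prr5, Mtor and Mapkap1 and higher in Mlst8. Over all genes tested the groups did not overlap in 37.3%, with 17.9% lower and 19.4% higher without IL-3, so the share among the 10 genes was near the background. The highest library of a gene was a median of 1.28 times its lowest over the 9 genes other than Prr5, and 2.31 times over all tested genes with counts in every library.

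The libraries differed in the levels of long against short genes. When the genes tested were split by length into 4 groups of equal size, 7 of the 10 genes (all but Mlst8, Mapkap1 and Prr5) were in the group of the longest genes. Relative to each gene's own mean, that group had a median of 0.27 on the log2 scale in Abl1ko/IL3+ replicate 1 and -0.19 in Abl1ko/IL3+ replicate 2, against -0.021 and 0.0066 in the Abl1ko/IL3- libraries. Rictor deviated the same way, at 0.50 and -0.98 in the Abl1ko/IL3+ libraries, as did Tsc1 at 0.24 and -0.29 and Rptor at 0.17 and -0.16. Deptor followed too, at 0.14 and -0.12. Tsc2 deviated the other way, at -0.20 and 0.26, as did Rheb at -0.18 and 0.0091. Mtor was above its own mean in both Abl1ko/IL3+ libraries, at 0.10 and 0.048. The part of gene length in these values was not tested.

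Among 82 other genes of the group and of the pathway lists described next, the gene whose profile was most like that of Mtor was Mapkap1, with a root mean square difference of 0.035 on the log2 scale over 4 libraries after centering each gene on its own mean. Tti1, a chaperone cofactor for mTOR and related kinases, followed at 0.11, and Akt1 at 0.12. The measure is small for any genes that vary little. The highest library was 1.18 times the lowest for Mtor and 1.11 times for Mapkap1.

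Levels between genes were compared per gene length, with the deposited FPKM values. Mapkap1 was the highest of the 10 genes in all 4 libraries, at 6.92 to 8.58 FPKM. Rheb (5.05 to 6.53 FPKM), Mlst8 (4.36 to 5.47 FPKM) and Tsc2 (4.72 to 5.42 FPKM) came next, with ranges that overlapped each other but not that of Mapkap1. Mtor followed at 1.99 to 2.64 FPKM, clear of the genes above it. Rptor (1.34 to 2.03 FPKM), Rictor (0.666 to 2.24 FPKM) and Tsc1 (1.12 to 1.96 FPKM) overlapped each other, and the ranges of Rptor and Rictor also reached that of Mtor. Deptor was at 0.515 to 0.742 FPKM. Prr5 changed place in the order, from rank 9 and rank 5 of the 10 genes with IL-3, at 1.51 and 2.32 FPKM, to the lowest rank in both libraries without it, at 0.139 and 0 FPKM.

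**Figure D4:**
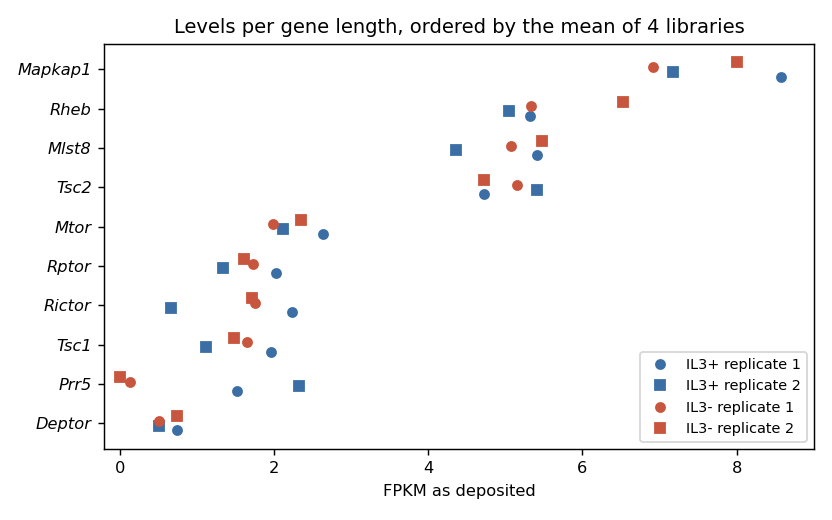
Deposited FPKM values of the 10 genes (horizontal axis) in each library (blue: with IL-3, red: without, circles and squares for replicates 1 and 2), ordered by the mean over the 4 libraries. Mapkap1 lies highest at 6.92 to 8.58 FPKM, and Prr5 lies lowest in both libraries without IL-3.

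Ratios within a library do not depend on the scaling between libraries. Mlst8 was at 2.05 and 2.06 times the FPKM of Mtor with IL-3, and at 2.55 and 2.33 times without it. This was the only ratio apart from Prr5 to Rictor, of 8 compared, whose groups did not overlap, and its log2 difference was 0.25 (two-sided exact permutation p = 0.333, the smallest that 4 libraries can give, and 1 after Benjamini-Hochberg adjustment over the ratios tested). The ratio of Rptor to Rictor, the scaffolds of the 2 complexes, was 0.906 and 2.02 in Abl1ko/IL3+ cells, compared with 0.981 and 0.94 in Abl1ko/IL3- cells. The spread between the Abl1ko/IL3+ libraries was larger than the difference between the groups. Tsc1 was at 0.415 and 0.208 times Tsc2 with IL-3, and at 0.319 and 0.313 times without it. Deptor to Mtor (0.243 to 0.314 over all libraries), Mapkap1 to Rictor (3.83 to 10.8), Rheb to its paralog Rhebl1 (1.55 to 2.72) and Akt1s1 to Rptor (3.73 to 9.26) overlapped as well, with exact permutation p-values from 0.667 to 1. Prr5l, the paralog of Prr5, was not found by name in the deposited table and could not be compared.

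The wider pathway was read from 5 lists that name 77 other genes, of which 75 were in the table and 73 were tested. None of the 73 passed edgeR's test after adjustment, and before adjustment 4 were under 0.05, 3 lower and 1 higher without IL-3, beside 5.91% of all genes tested (3.36% lower and 2.56% higher). DESeq2 called 2 of the 73, Tfeb and Sesn3, beside 1.64% of all genes. Of the 73 genes, 47 (64.4%) had a fitted value below 0, against 51.9% of all genes tested, with a median log2 fold change of -0.16. That median stayed below 0 without each library in turn, between -0.078 and -0.16. The groups did not overlap in 28.8% of the 73 genes, 16 of them lower (21.9%) and 5 higher (6.85%), beside 37.3%, 17.9% and 19.4% of all genes tested.

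The 6 tested complex partners and paralogs, Akt1s1, Tti1, Tti2, Telo2, Tbc1d7 and Rhebl1, overlapped between the groups, with log2 fold changes from -0.27 to 0.45. Akt1s1 encodes PRAS40, an inhibitor bound to RPTOR, and had 30.4 and 47.8 CPM with IL-3, and 44.7 and 20.1 CPM without it. Tbc1d7, the third subunit of the TSC complex, had 10.3 and 16.6 CPM with IL-3, and 12.5 and 12.7 CPM without it.

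Of 29 genes for amino acid sensing at the lysosome, 6 were lower (20.7%, near the 17.9% of all genes tested) and 3 higher (10.3%, against 19.4%) in both libraries without IL-3, and the median log2 fold change was -0.11. Sesn3 encodes a sestrin, a stress-induced inhibitor of mTORC1. Its reads numbered 65 and 252 with IL-3 but 8 and 15 in its absence (log2 fold change -3.71, standard error 1.0, edgeR unadjusted p = 0.0142, adjusted p = 0.727). Sesn3 passed the filter on low counts through its Abl1ko/IL3+ libraries, as its counts without IL-3 were too few to pass alone. Its paralogs Sesn1 and Sesn2 were read at far higher levels and overlapped between the groups. Rragb, a Rag GTPase that recruits mTORC1 to the lysosome, had 13.1 and 7.15 CPM with IL-3 and 6.35 and 6.84 CPM without it. Castor2, of the arginine sensor family, was read 64 and 78 times with IL-3 and 22 and 47 times in its absence.

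Of 16 tested kinases and stress inputs that act on TSC, 3 were lower (18.8%, near the 17.9% of all genes tested) and 1 higher (6.25%, against 19.4%) in both libraries without IL-3, with a median log2 fold change of -0.33. Prkag1, a regulatory subunit of AMP-activated kinase, had 74.1 and 141 CPM with IL-3, and 72.6 and 71.4 CPM without it. Cab39 and Strada encode partners of the kinase LKB1. Cab39 had 170.4 and 112 CPM with IL-3 and 106 and 89.0 CPM without it, and Strada 20.8 and 23.5 CPM with IL-3 and 28.5 and 33.0 CPM without it.

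Of 17 mTORC1 substrates and translation factors, 7 were lower (41.2%, against 17.9% of all genes tested) and 1 higher (5.88%, against 19.4%) in both libraries without IL-3, and the median log2 fold change was -0.29. Tfeb, the lysosomal transcription factor that mTORC1 keeps out of the nucleus, was read 573 and 1348 times with IL-3 but 66 and 176 times in its absence (log2 fold change -2.93, standard error 0.76, edgeR unadjusted p = 0.0118, adjusted p = 0.727). Its relative Tfe3 overlapped between the groups, at 46.5 and 65.4 CPM with IL-3 and 47.6 and 60.04 CPM without it. Pdcd4, a translation inhibitor that S6 kinase marks for decay, had 62.9 and 28.7 CPM with IL-3, and 10.4 and 19.0 CPM without it (log2 fold change -1.64, standard error 0.57, edgeR unadjusted p = 0.034, adjusted p = 0.815). Eif4ebp3, a repressor of cap-dependent translation, was read 17 and 9 times with IL-3 but 81 and 45 times in its absence. The log2 fold change of Eif4ebp3 was 2.51 (standard error 0.83, edgeR unadjusted p = 0.0294, adjusted p = 0.798). It passed the filter on low counts through its Abl1ko/IL3- libraries, as its counts with IL-3 were too few to pass alone. Of 8 tested mTORC2 substrates, 1, Akt1, did not overlap between the groups (12.5%, against 37.3% of all genes tested), at 206 and 186 CPM with IL-3 and 145 and 158 CPM without it (log2 fold change -0.37, standard error 0.30).

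**Figure D5:**
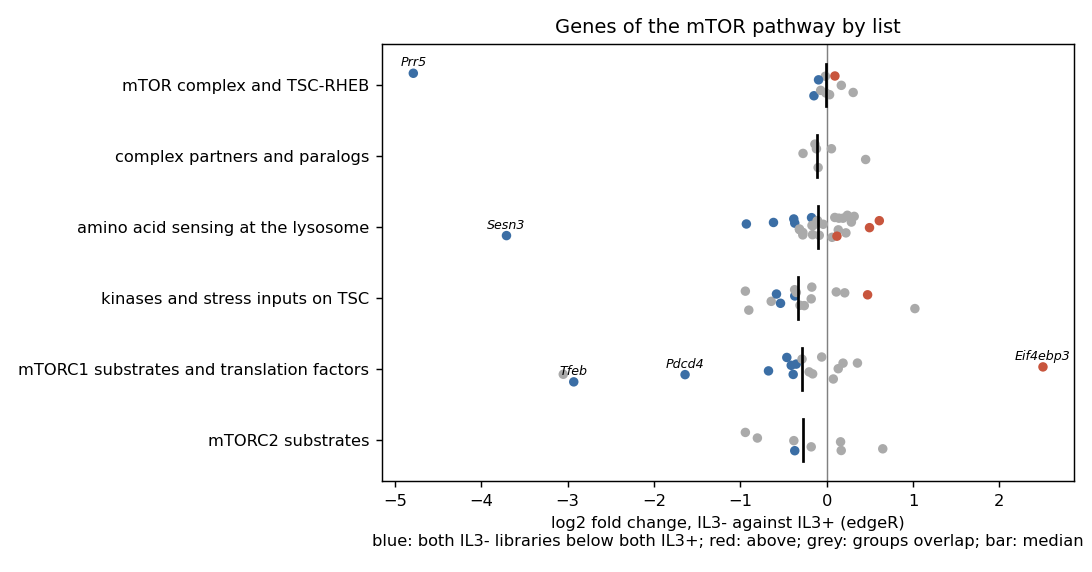
Fitted log2 fold change, Abl1ko/IL3- over Abl1ko/IL3+ (horizontal axis, edgeR), of the tested genes of each list (rows), colored blue where both libraries without IL-3 were below both with it, red where above and grey where the groups overlapped, with a bar for the median. Prr5 (-4.79), Sesn3 (-3.71), Lpin1 (-3.05, overlapping groups), Tfeb (-2.93), Pdcd4 (-1.64) and Eif4ebp3 (2.51) lie outside the bulk of their lists.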

How the data were processed

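RNA-seq was analysed in 4 libraries of 32Dcl3-Abl1ko cells, 2 with and 2 without IL-3, grouped by the labels. The authors aligned reads to GRCm38 with the Subread aligner, summarized them with featureCounts and deposited raw counts per gene, and they also deposited FPKM values without naming a tool. The submitters' processing notes name STAR, Cuffdiff and mm10 as well, so the aligner behind the table is uncertain. Versions and the strand setting are not given in the sources used here. Coordinates are those of the table, and 8 of the 10 genes had the same start and end in GENCODE M21.

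The tests on counts used edgeR 4.0.16 under R 4.3.3 (filterByExpr, TMM, quasi-likelihood F test, two-sided, Benjamini-Hochberg adjustment over 16535 genes, threshold 0.05). The standard error of a log2 fold change was its size divided by the square root of F. The steps were run on simulated data, where recovery of changed genes was required only at a replicate spread far below that of these data. That check does not show how many changed genes 2 libraries a group would find. Alternatives were DESeq2 1.42.0, limma 3.58.1 on log2(FPKM + 1) and log2(FPKM + 0.1), library size alone, other count filters, the replicate number as a block and leaving out each library. The members and lists were chosen with earlier results of these data known. The text names all 10 members and, from each pathway list, up to 3 tested genes with the largest fitted change whose groups did not overlap, with the 3 genes most like Mtor, while other genes named, such as the neighbours of Prr5, were chosen after their values were seen.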

Additional observations from a re-analysis of the deposited data

How the results depend on the processing

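The number of the 10 genes past the threshold was 0 in edgeR and 1 with DESeq2 (Prr5), and that of the other pathway genes was 0 in edgeR and 2 with DESeq2, while over all genes DESeq2 called 271. The cause was not tested. Both numbers were 0 in the other fits that were run, the fits without each library included (0 to 0), of which the one without Abl1ko/IL3- replicate 1 called 15 genes in all. A fit that leaves out a library assumes that the lone library varies like those of the other group. At an unadjusted p-value under 0.05, edgeR had 1 of the 10 genes and 4 of the 73. With at least 10 counts in every library Prr5 was not tested.

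The median log2 fold change of the 10 genes was -0.012, with a range from -0.15 to 0.11 without each library in turn, lowest without Abl1ko/IL3+ replicate 2 and highest without Abl1ko/IL3+ replicate 1. Fitted with a replicate block, the members had a median of -0.013, 0 of the 10 genes and 0 of the 73 were called, Prr5 was at -5.57, and 548 genes in all were under 0.05 before adjustment, against 978 without the block. Libraries with the same number deviated with a correlation of -0.19 over all genes. A crossed pairing, added once the data had been seen, called 0 of the 10 and 0 of the 73 genes. The numbers are not shown to pair the libraries.

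The sign of Rptor turned with library size alone (0.0052) and with limma on log2(FPKM + 1) (0.0023) and log2(FPKM + 0.1) (0.012), and that of Deptor with library size alone (0.013). Without each library in turn, the log2 fold change ranged from -0.16 to 0.18 for Rptor, from -0.25 to 1.25 for Rictor, from -0.21 to 0.34 for Tsc1, from -0.27 to 0.18 for Tsc2, from -0.22 to 0.17 for Deptor and from -10.98 to -3.76 for Prr5, whose lowest value was set by the library with 0 counts. The log2 differences of the ratios ranged from -1.07 to 0.084 for Rptor to Rictor, from -0.39 to 0.61 for Tsc1 to Tsc2 and from 0.18 to 0.31 for Mlst8 to Mtor. The median of the 10 genes turned sign with library size alone (0.0092) and with limma on log2(FPKM + 1) (0.00049) and log2(FPKM + 0.1) (0.0049). Of 186 values under alternatives 25 turned sign, and none of the single genes among them passed the adjusted threshold. Prr5 passed it with DESeq2. The 186 include numbers of genes past the threshold, which cannot turn sign. They also include ratios averaged by replicate number or taken from counts over length, which nearly repeat the main values. The ratio of Prr5 to Prr5l could not be taken, because Prr5l was not found by name in the deposited table.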

Other observations

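Some genes of the pathway lists differed between libraries in ways that did not follow IL-3. They were chosen after their values were seen, and none that was tested passed edgeR's test after adjustment. Eif4e, the cap-binding protein that the 4E-BP proteins restrain, had 6504 counts in Abl1ko/IL3+ replicate 1 and 6283 in Abl1ko/IL3- replicate 1, against 907 and 1121 in the libraries numbered 2. The levels were 100.9 and 131 CPM against 16.7 and 19.3. The labels do not say what the replicate numbers share.

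Prkaa1, a catalytic subunit of AMP-activated kinase, was low in Abl1ko/IL3- replicate 1 alone, with 10.2 CPM there and 59.4 to 78.1 CPM in the other libraries. Lpin1, a phosphatidate phosphatase that mTORC1 phosphorylates, was high in Abl1ko/IL3+ replicate 1 alone, with 72.4 CPM there and 2.13 to 6.89 CPM in the other libraries. The mTORC2 substrate Sgk1 was counted in Abl1ko/IL3+ replicate 1 only, with 11 counts, and was not tested.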
